A study of Mus musculus with 6 samples.

Results

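The 9 receptors Lpar1, Lpar5, Lpar6, S1pr1, S1pr2, P2ry10, Gpr132, Gpr34 and Ptafr, and the ligand-making enzyme Enpp2, were followed in liver macrophage preparations of obese mice. These 10 genes were chosen by name, as receptors for lysophospholipids, sphingosine 1-phosphate (S1P) and platelet-activating factor (PAF) with autotaxin, among 49315 listed genes. All 10 passed the filter on low counts that left 16134 genes for testing. F4/80-positive cells (F4/80 is a macrophage surface protein) were taken with magnetic beads from digested livers after hepatocytes had been spun down, and 1 poly-A RNA library was sequenced from each of 3 WT and 3 Lpcat3 KOMac samples. WT mice were Lpcat3 fl/fl without Cre (LysM +/+), and Lpcat3 KOMac littermates were Lpcat3 fl/fl with LysM Cre/+, on a C57BL/6N background. Both genotypes therefore carried the floxed Lpcat3 alleles, and both had eaten a diet with 60% fat for 16 weeks, begun between 8 and 12 weeks of age. LysM Cre is driven by the lysozyme gene Lyz2, acts in myeloid cells and gives an incomplete deletion, so the model is a partial loss of Lpcat3.

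Lysophospholipids are membrane lipids that have lost 1 of their fatty acids. Lpcat3 puts a polyunsaturated fatty acid back onto lysophosphatidylcholine, and autotaxin instead turns extracellular lysophosphatidylcholine into lysophosphatidic acid (LPA). LPA, S1P, lysophosphatidylserine and PAF act through G protein-coupled receptors on the cell surface, which steer migration, adhesion and survival of leukocytes and endothelial cells. The comparison of genotypes asked whether transcripts of these receptors and of autotaxin differed in liver macrophages with less Lpcat3.

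None of the 10 transcripts passed the test between genotypes. With edgeR's quasi-likelihood test, 0 of 10 had an adjusted p under 0.05, against 0.0% of all genes tested, and 0 of 10 had an unadjusted p under 0.05, against 2.64% of all genes (426 of 16134). DESeq2 called 0 of 10 as well, against 0.0868% of the 13823 genes to which it gave an adjusted p (12 genes). The WT and Lpcat3 KOMac libraries overlapped for each of the 10. Among all genes, 2.29% were higher in every Lpcat3 KOMac library than in every WT library and 5.2% were lower in every one. The median log2 fold change (Lpcat3 KOMac over WT) of the 10 was 0.10, beside -0.04 over all genes tested, and 6 of 10 were above 0. The 10 differed in how precisely this was measured. Lpar5, S1pr2 and Lpar6 varied little between libraries, whereas for Enpp2 and Gpr132 the 95% intervals reached from 7.6- and 3.18-fold lower to 4.15- and 4.38-fold higher.

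The libraries held between 44954224 and 71392812 counts. Lpcat3 showed a log2 difference of -1.56 (standard error 0.26) and lay lower in every Lpcat3 KOMac library than in every WT library. Lyz2, the gene that carries Cre, had -1.42 (standard error 0.30) with the same separation. By edgeR's quasi-likelihood test their unadjusted p were 0.00119 and 0.00351, and neither had an adjusted p under 0.05. The adjusted threshold was therefore not reached even for the deleted gene. The 6 Kupffer cell markers were present in every library. Their summed levels were 24900 to 34000 counts scaled to library size (CPM, TMM-scaled) in WT and 18900 to 27200 in Lpcat3 KOMac cells. Of these 6, 0 had a log2 fold change above 0 and 1 had an unadjusted p under 0.05, against 2.64% of all genes. That was Clec4f, at -0.44 (unadjusted p = 0.0423, edgeR), lower in every Lpcat3 KOMac library, beside 5.2% of all genes. Timd4 and Marco spanned 7.63- and 21.3-fold between libraries. Other cells were also represented. All 5 hepatocyte markers were above 3 counts in every library, with sums of 1720 to 20200 CPM in WT and 4320 to 12400 CPM in Lpcat3 KOMac cells, and WT library 1 and Lpcat3 KOMac library 2 were the highest of the 6. All 7 endothelial markers were present, at 1530 to 2090 CPM in WT and 1530 to 1930 in Lpcat3 KOMac cells. Cdh5 alone held 536 to 1160 CPM of this. Of 5 neutrophil markers 4 were above 3 counts in every library, and Ly6g had 3 counts or fewer in each. The neutrophil sums were 80.3 to 157 CPM in WT and 78.7 to 142 CPM in Lpcat3 KOMac cells. Most of this was Csf3r, at 74.7 to 155 CPM, whereas S100a8, S100a9 and Retnlg reached at most 2.83 CPM in a library. Male Ddx3y transcripts were found in all 6 libraries at 114 to 155 CPM, and the female transcript Xist had 3 counts or fewer in each. The sex matters for P2ry10 and Gpr34 on the X chromosome. The labels do not say whether each library is a separate animal, so p-values measure the spread between these libraries.

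The identity of P2ry10 had to be examined first, since a near-copy lies close by. P2ry10 (chrX:107088492-107104974, GRCm38, plus strand) encodes a receptor for lysophosphatidylserine. Its neighbour P2ry10b shares 80.7% of aligned coding bases with it, and the longest stretch in which the coding sequences are identical has 160 bases. Among all other pairs of the receptors examined, the longest identical stretch was 20 bases, between Lpar1 and Lpar3. The sequences below, read from GRCm38, are 200 coding bases around that stretch on the plus strand, at chrX:107102655-107102854 for P2ry10 and at chrX:107171230-107171429 for P2ry10b. They are shown because reads that fall wholly inside the stretch cannot be assigned to either gene. Capitals mark the 2 bases at which the windows differ, and the identical run lies between them.
P2ry10: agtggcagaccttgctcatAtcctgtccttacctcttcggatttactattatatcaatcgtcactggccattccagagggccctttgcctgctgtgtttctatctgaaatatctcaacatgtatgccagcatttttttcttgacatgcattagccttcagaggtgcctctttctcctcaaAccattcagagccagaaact
P2ry10b: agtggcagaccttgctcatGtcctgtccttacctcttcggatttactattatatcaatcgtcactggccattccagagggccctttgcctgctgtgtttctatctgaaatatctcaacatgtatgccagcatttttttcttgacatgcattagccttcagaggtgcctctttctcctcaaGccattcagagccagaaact

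P2ry10b was far more abundant than P2ry10. P2ry10 was counted 14 to 29 times per library and P2ry10b 1227 to 2052 times, so that P2ry10b exceeded P2ry10 by 42.3 to 140 times in CPM, without scaling for length. P2ry10 stood at 0.215, 0.399 and 0.634 CPM in WT libraries 1 to 3 and at 0.431, 0.424 and 0.34 CPM in Lpcat3 KOMac libraries 1 to 3. The Lpcat3 KOMac values lay inside the WT range, and the log2 difference was -0.05 (standard error 0.44, 95% interval -1.14 to 1.05). How reads matching both genes were counted is not given in the sources used here, and the level of P2ry10 is therefore uncertain. For P2ry10b itself the log2 difference was 0.09 (standard error 0.16), and its libraries overlapped.

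Enpp2 (chr15:54838898-54920146, minus strand) encodes autotaxin, the secreted enzyme that makes LPA and that hepatocytes and adipocytes are known to produce. It was counted 313 to 3642 times per library. Its level was 56.1, 7.79 and 6.85 CPM in WT libraries 1 to 3, and 11.2, 32 and 9.12 CPM in Lpcat3 KOMac libraries 1 to 3. WT library 1 and Lpcat3 KOMac library 2 stood above the others, and the remaining 4 lay between 6.85 and 11.2 CPM. Mean levels were 23.6 ± 28.1 CPM in WT and 17.4 ± 12.6 CPM in Lpcat3 KOMac cells (SD, n = 3 each). The log2 fold change was -0.44 (standard error 1.00), with a 95% interval from -2.93 to 2.05, the widest of the 10.

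The order of the libraries for Enpp2 was that of the summed hepatocyte markers. Those 5 markers summed to 20200, 1880 and 1720 CPM in WT libraries 1 to 3 and to 4680, 12400 and 4320 CPM in Lpcat3 KOMac libraries 1 to 3, and both measures ranked WT library 1 first, Lpcat3 KOMac library 2 second and WT library 3 last. From lowest to highest library Enpp2 spanned 8.19-fold and the marker sum 11.8-fold. Whether hepatocyte RNA contributed to the Enpp2 counts was not tested, and in bulk samples fewer cells of a type and less RNA per cell cannot be told apart. The genotype difference in Enpp2 changed with the handling of these libraries. Without WT library 1 the log2 fold change of Enpp2 was 1.25 (unadjusted p = 0.0879), and without both libraries it was 0.48 (unadjusted p = 0.0507), by edgeR's quasi-likelihood test. Without Lpcat3 KOMac library 2 alone it was -1.22, and with the hepatocyte markers as a covariate it was -0.40 (unadjusted p = 0.108, edgeR).

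**Figure D1:**
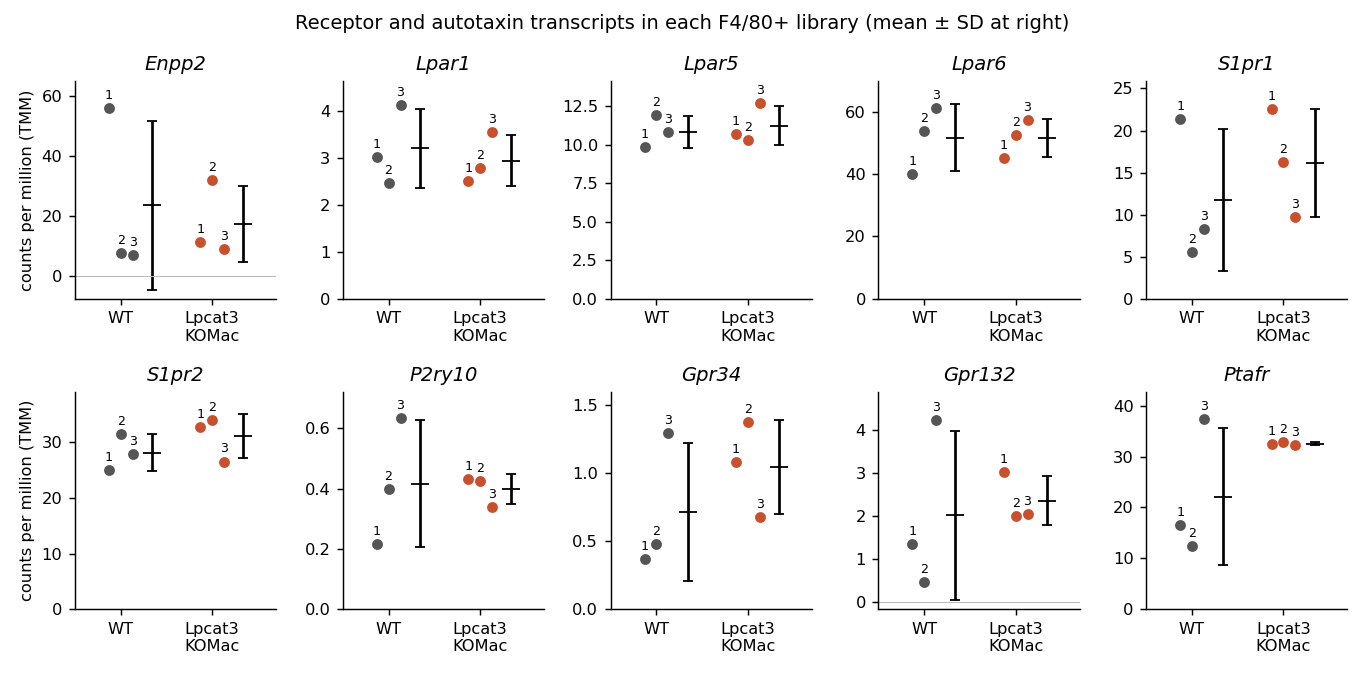
CPM (TMM-scaled, linear axes from 0 except where an error bar passes below it) of each of the 10 transcripts, with 1 numbered point per library (WT grey, Lpcat3 KOMac orange) and the mean ± SD of 3 libraries at the right of each group. The groups overlap in each panel, Enpp2 is led by WT library 1 at 56.1 CPM, and the 3 Lpcat3 KOMac points of Ptafr sit together between 32.3 and 32.8 CPM.

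The 3 LPA receptors showed no separation of the genotypes, and 2 of them, Lpar5 and Lpar6, were even across libraries. Lpar6 (chr14:73237895-73243294, plus strand), an LPA receptor of the P2Y-like family, was counted 2605 to 2797 times per library. It stood at 40.1, 53.7 and 61.2 CPM in WT libraries 1 to 3 and at 45, 52.4 and 57.2 CPM in Lpcat3 KOMac libraries 1 to 3. The group means were equal at 51.6 CPM, with an SD of 10.7 in WT and 6.15 in Lpcat3 KOMac cells (n = 3 each). The log2 fold change was -0.0024 (standard error 0.18), and the 95% interval from -0.45 to 0.44 corresponds to 0.733- to 1.36-fold. Lpar6 lies on the opposite strand inside Rb1, the retinoblastoma gene, and 408 of its 5400 exonic bases overlap Rb1 exons. Whether reads were assigned by strand is not given in the sources used here, so reads over those bases may not have been told apart. Rb1 had 1704 to 2543 counts.

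Lpar5 (chr6:125067920-125082472, plus strand) is an LPA receptor of the same family found on leukocytes and platelets. Its level was 9.82, 11.9 and 10.8 CPM in WT libraries 1 to 3 and 10.7, 10.3 and 12.7 CPM in Lpcat3 KOMac libraries 1 to 3, on 496 to 638 counts. The groups overlapped almost entirely. Its log2 fold change was 0.05 (standard error 0.14) and its 95% interval, -0.30 to 0.40, was among the narrowest of the 10, so differences beyond 1.32-fold upward or 1.23-fold downward lay outside it. Lpar5 lies 363502 bases from Lpcat3 on the same chromosome, next to alleles that were floxed in both genotypes.

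Lpar1 (chr4:58435255-58553898, minus strand), a widely expressed LPA receptor of the family that also holds the S1P receptors, was counted less often. Its 123 to 196 counts gave 3.02, 2.46 and 4.13 CPM in WT libraries 1 to 3 and 2.5, 2.78 and 3.55 CPM in Lpcat3 KOMac libraries 1 to 3. The highest and the lowest library were both WT. Its log2 fold change was -0.12 (standard error 0.28, 95% interval -0.81 to 0.56).

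Of the 2 S1P receptors, S1pr2 was even and S1pr1 was not. S1pr2 (chr9:20962361-20976781, minus strand), which holds back migration, stood at 24.9, 31.5 and 27.9 CPM in WT libraries 1 to 3 and at 32.6, 33.9 and 26.5 CPM in Lpcat3 KOMac libraries 1 to 3, on 1247 to 1892 counts. Lpcat3 KOMac libraries 1 and 2 were the highest and library 3 lay within the WT values. S1pr2 had a log2 fold change between genotypes of 0.14 (standard error 0.14), with a 95% interval from -0.20 to 0.49. S1pr2 and Lpar5 covered the smallest ranges of the 10, at 1.36- and 1.3-fold between lowest and highest library.

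S1pr1 (chr3:115710433-115715072, minus strand) is the S1P receptor that guides lymphocytes out of lymphoid organs and keeps the endothelial barrier tight. It stood at 21.4, 5.55 and 8.24 CPM in WT libraries 1 to 3 and at 22.5, 16.3 and 9.71 CPM in Lpcat3 KOMac libraries 1 to 3, on 278 to 1391 counts. WT library 1 reached the level of Lpcat3 KOMac library 1, while WT libraries 2 and 3 lay below all 3 Lpcat3 KOMac libraries. Mean levels were 11.7 ± 8.49 CPM in WT and 16.2 ± 6.39 CPM in Lpcat3 KOMac cells (SD, n = 3 each). The log2 fold change was 0.46 (standard error 0.58), with a 95% interval from -0.98 to 1.90.

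The S1pr1 difference changed with the libraries used. It was 0.12 without WT library 2 (unadjusted p = 0.83, edgeR), 0.18 without Lpcat3 KOMac library 1 and 0.26 without WT library 3. Without WT library 1 the log2 fold change was 1.23 (unadjusted p = 0.0257, edgeR's quasi-likelihood test), and S1pr1 was the 1 transcript of the 10 with an unadjusted p under 0.05, against 12.3% of the genes tested in that fit. Without both WT library 1 and Lpcat3 KOMac library 2 it was again 1.23 (unadjusted p = 0.0469), against 11.0% of genes. No adjusted p passed 0.05 in either fit. Endothelial markers moved with S1pr1 in part. Lyve1, a hyaluronan receptor of liver sinusoids, stood at 42.4, 14.8 and 24.6 CPM in WT and at 65.1, 64.2 and 19.2 CPM in Lpcat3 KOMac libraries 1 to 3. As for S1pr1, Lyve1 had its lowest value in WT library 2 and its highest in Lpcat3 KOMac library 1. The same held for Kdr, the endothelial receptor for vascular growth factor, with a log2 difference of 0.79 (standard error 0.27, unadjusted p = 0.0287 by edgeR). It also held for Clec4g and for Oit3, the latter with 0.73 (standard error 0.32, unadjusted p = 0.0675 by edgeR). WT library 1, however, was second highest for S1pr1 but second lowest for Kdr, at 68.6 CPM. Of the 7 markers, 5 had a log2 fold change above 0 and 1 an unadjusted p under 0.05. Their sum had another order, with WT library 2 highest at 2090 CPM, of which Cdh5, the endothelial cadherin, made up 1160 CPM. Cdh5 and the summed Kupffer cell markers both ranked WT library 2 first, Lpcat3 KOMac library 3 second and Lpcat3 KOMac library 2 last. Which cells the Cdh5 counts came from was not tested. Pecam1 was also highest in WT library 2, at 283 CPM, and Stab2 was lowest in WT library 1, at 371 CPM. A low WT library 2 was not particular to Lyve1, Kdr, Clec4g and Oit3. The summed stellate, monocyte, dendritic and T and NK cell markers were also lowest there, at 250, 38.1, 6.25 and 1.4 CPM. The summed Kupffer, B cell and neutrophil markers were instead highest there, and the hepatocyte sum was lowest in WT library 3. The part of endothelial RNA in S1pr1 was not tested.

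**Figure D2:**
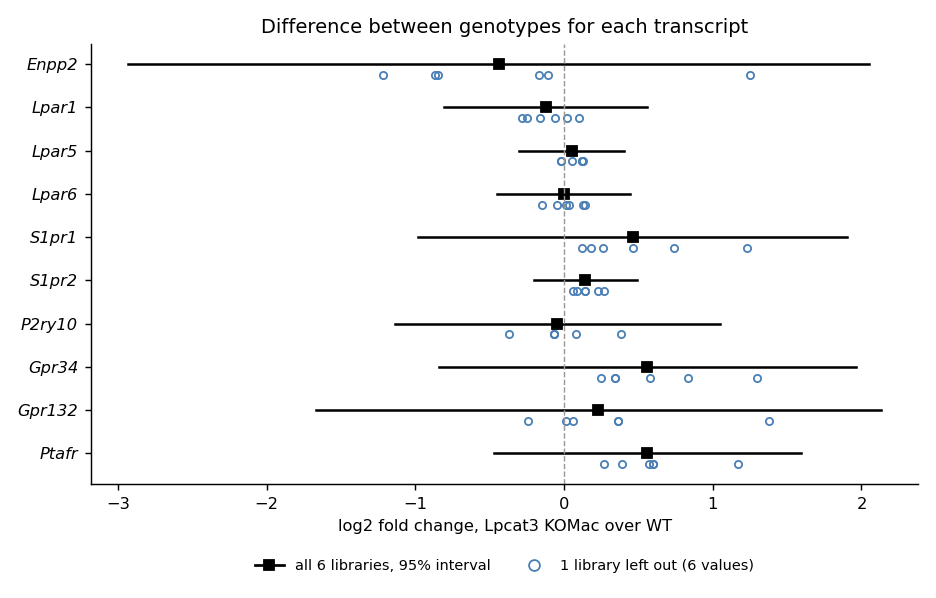
Log2 fold change of each transcript (Lpcat3 KOMac over WT, x axis) by edgeR's quasi-likelihood fit, with squares and bars for the value and 95% interval on all 6 libraries and open circles for the 6 values with 1 library left out. Each interval includes 0, those of Lpar5, S1pr2 and Lpar6 are the narrowest, and single circles stand far to the right for Enpp2, S1pr1, Gpr34, Gpr132 and Ptafr, at 1.25, 1.23, 1.30, 1.38 and 1.17.

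Gpr34 (chrX:13632089-13640858, plus strand), the other lysophosphatidylserine receptor of the group, was low and uneven. It was counted 24 to 71 times per library. Its level was 0.369, 0.479 and 1.29 CPM in WT libraries 1 to 3 and 1.08, 1.37 and 0.68 CPM in Lpcat3 KOMac libraries 1 to 3. Only WT library 3 reached the level of the Lpcat3 KOMac libraries. For Gpr34 the log2 fold change was 0.56 (standard error 0.57, 95% interval -0.84 to 1.96). Gpr34 lies inside an intron of Cask on the opposite strand with no exonic overlap, and Cask had 1449 to 2304 counts.

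Gpr132 and Ptafr, receptors of myeloid cells, both had WT library 3 highest and WT libraries 1 and 2 lowest. Gpr132 (chr12:112850876-112860916, minus strand) takes part in macrophage migration toward lysophosphatidylcholine. It stood at 1.34, 0.459 and 4.24 CPM in WT libraries 1 to 3 and at 3.03, 2.01 and 2.04 CPM in Lpcat3 KOMac libraries 1 to 3, on 23 to 194 counts. Its 9.24-fold span between WT libraries 2 and 3 was the widest of the 10 and enclosed all Lpcat3 KOMac values. For Gpr132 the log2 fold change was 0.23 (standard error 0.77, 95% interval -1.67 to 2.13).

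Ptafr (chr4:132564067-132582683, plus strand) encodes the receptor for PAF, an ether phospholipid that activates leukocytes and platelets. It stood at 16.5, 12.4 and 37.4 CPM in WT libraries 1 to 3 and at 32.5, 32.8 and 32.3 CPM in Lpcat3 KOMac libraries 1 to 3, on 619 to 1886 counts. The Lpcat3 KOMac libraries were nearly alike, and the WT libraries lay on both sides of them. Mean levels were 22.1 ± 13.4 CPM in WT and 32.5 ± 0.288 CPM in Lpcat3 KOMac cells (SD, n = 3 each). The log2 fold change was 0.56 (standard error 0.42), with a 95% interval from -0.47 to 1.59 and the smallest unadjusted p of the 10, 0.23.

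The values for Ptafr, Gpr34 and Gpr132 moved most when WT library 3 was left out. Without it the log2 fold changes were 1.17 for Ptafr (unadjusted p = 0.000791), 1.30 for Gpr34 (unadjusted p = 0.0301) and 1.38 for Gpr132 (unadjusted p = 0.0563), by edgeR's quasi-likelihood test. Without WT library 2 Ptafr was instead at 0.27 (unadjusted p = 0.481, edgeR), and without WT library 1 Gpr34 was at 0.25 (unadjusted p = 0.664, edgeR). Gpr34 was at 0.01 without both libraries highest in hepatocyte transcripts. The fit without WT library 3 gave 2 of 10 with an unadjusted p under 0.05, against 3.28% of the genes tested in that fit, and the smallest adjusted p of the 10 was 0.996. Gpr132 was at -0.24 without WT library 2. Ccr2, the chemokine receptor of recruited monocytes, stood at 31.2, 17.5 and 92.5 CPM in WT and at 71.6, 58.6 and 51.2 CPM in Lpcat3 KOMac libraries 1 to 3. Ccr2, Ptafr and Gpr132 each had WT library 3 highest, the 3 Lpcat3 KOMac libraries next and WT libraries 1 and 2 lowest. The 4 monocyte markers, all above 3 counts in every library, summed to 38.1 to 112 CPM in WT and to 69.1 to 100 CPM in Lpcat3 KOMac cells. The monocyte markers Ly6c2 and Chil3 had another order, with their highest values in Lpcat3 KOMac library 1, at 1.39 and 8.77 CPM. The part of monocyte RNA in Ptafr and Gpr132 was not tested.

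**Figure D3:**
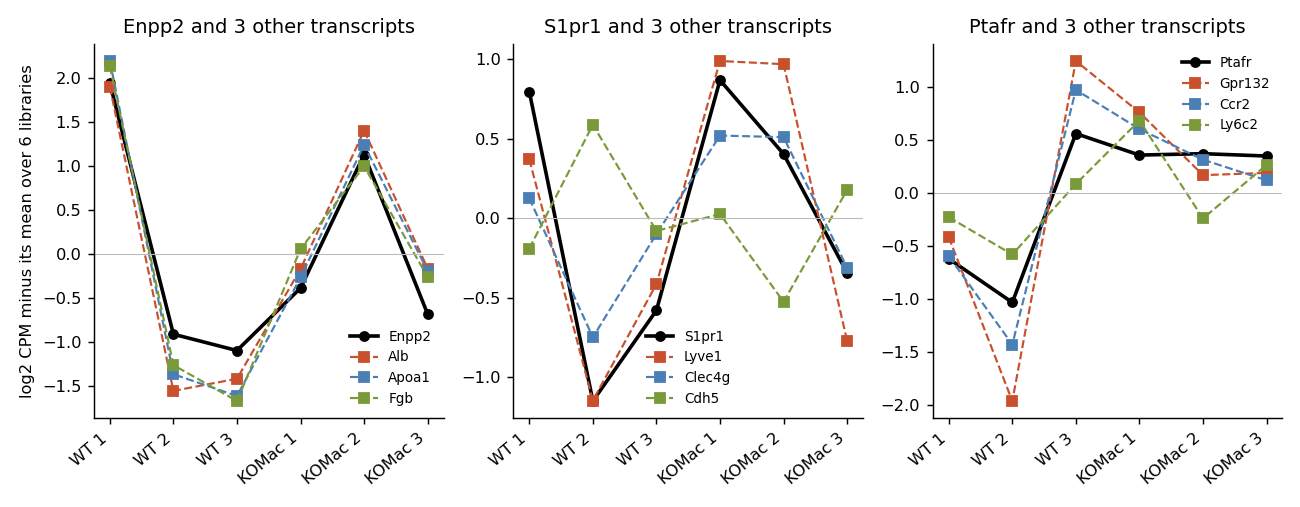
Log2 CPM of a transcript (black) and of 3 others, each minus its own mean over the 6 libraries (x axis, 1 position per library). The other transcripts were picked after their values were seen. Enpp2 runs with the hepatocyte transcripts Alb, Apoa1 and Fgb, with WT library 1 and Lpcat3 KOMac library 2 on top. S1pr1 has its lowest point in WT library 2 as Lyve1 and Clec4g do, unlike Cdh5. Ptafr, Gpr132 and Ccr2 are lowest in WT libraries 1 and 2 and highest in WT library 3, whereas Ly6c2 is highest in Lpcat3 KOMac library 1.

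Scaled by exon length, Lpar6 was the most abundant of the 10, with a mean of 9.56 ± 1.44 CPM per kb (SD over 6 libraries). It was followed by Ptafr at 7.51 ± 2.81, Lpar5 at 7.3 ± 0.713, Enpp2 at 5.9 ± 5.7, S1pr1 at 4.58 ± 2.35 and S1pr2 at 3.71 ± 0.454 CPM per kb. Among these 6 the ranges of neighbours overlapped, and the higher of each neighbouring pair led in 3 to 5 of 6 libraries. Further apart some pairs separated and others overlapped, as Lpar6 did with Lpar5, whose highest value was 8.4 CPM per kb. The lowest Lpar6 value, 7.42 CPM per kb, lay above the highest of S1pr1 (7.38) and of S1pr2 (4.26), and the lowest Lpar5 value, 6.48, lay above the highest of S1pr2. A gap then followed. S1pr2 exceeded Gpr132, at 0.896 ± 0.541 CPM per kb, in 6 of 6 libraries without overlap of the ranges. Below Gpr132 came Lpar1 at 0.716 ± 0.153, Gpr34 at 0.42 ± 0.204 and P2ry10 at 0.137 ± 0.0459 CPM per kb. Gpr34 exceeded P2ry10 in 6 of 6 libraries, although the ranges over all libraries overlapped. The near-copy P2ry10b, with 9.55 CPM per kb, stood at the level of Lpar6.

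**Figure D4:**
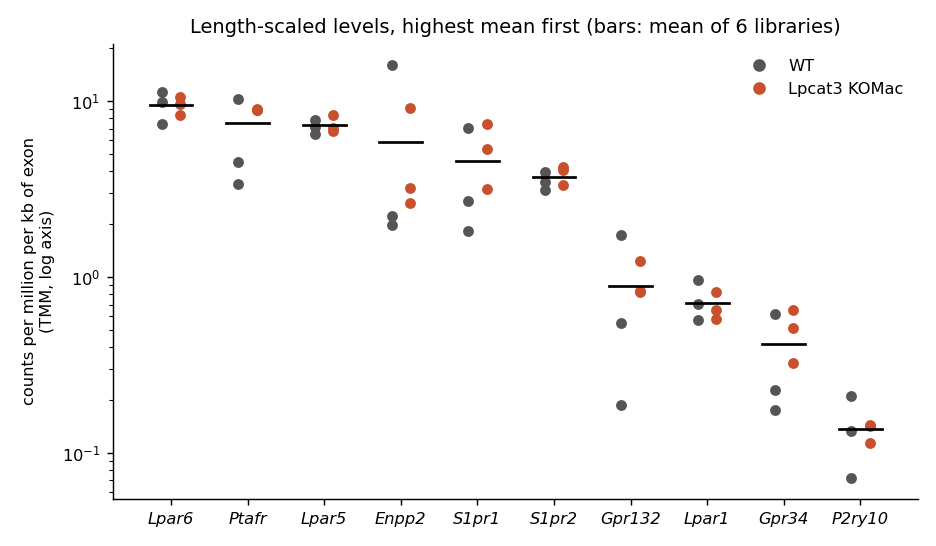
Length-scaled levels (CPM per kb of exon, log axis) of the 10 transcripts in the 6 libraries, WT grey and Lpcat3 KOMac orange, with a bar at the mean. Among the first 6 transcripts, with means from 9.56 to 3.71, neighbours overlap while Lpar6 lies wholly above S1pr1 and S1pr2, and the last 4 lie below, from 0.896 down to 0.137.

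The transcripts fell on both sides of the typical variation between libraries. Over all genes tested, the median range of log2 CPM between the lowest and the highest library was 0.69. Lpar5 (0.37), S1pr2 (0.44) and Lpar6 (0.61) ranged less than this, and Lpar1 (0.74) was close to it. P2ry10 (1.41), Ptafr (1.59), Gpr34 (1.79), S1pr1 (2.01), Enpp2 (3.03) and Gpr132 (3.11) ranged more. Of all genes tested, 92.7% had a smaller range than Gpr132 and 24.3% had a smaller range than Lpar5.

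The genes with the most similar pattern were found by the root mean square difference of mean-centred log2 CPM over the 6 libraries. Enpp2 was nearest to Gm15411 (0.151), Tmem102 (0.159) and Pank1 (0.163), and each of these had its highest level in WT library 1 and its second highest in Lpcat3 KOMac library 2. S1pr1 was nearest to Nhsl1 (0.121), Spry4 (0.14) and Csrp2 (0.169). Gpr132 was nearest to Lat2 (0.174), Sema4d (0.206) and Emb (0.225), and Ptafr to Mbp (0.107) and Phf24 (0.139). Each of these genes named beside Gpr132 or Ptafr had their lowest level in WT library 2. Gpr34 was nearest to Gm35021 (0.156), Cd300c (0.184) and Poln (0.197), and P2ry10 to Ankle1 (0.0971), Gm32633 (0.0974) and Gm26534 (0.112). Transcripts that were even across libraries had closer neighbours. Lpar5 was nearest to Gfra2 (0.0288), Mark4 (0.0289) and Zfp251 (0.0302), Lpar6 to Hist1h2bf (0.0266), Osbpl7 (0.036) and Zfp821 (0.0383), S1pr2 to Senp7 (0.0495), Ulbp1 (0.0517) and Atad2b (0.0542), and Lpar1 to Wdr74 (0.0709), 5930420M18Rik (0.0802) and D5Ertd605e (0.0868). Among the 10 themselves, Lpar5 and Lpar6 were the most alike, with a difference of 0.161.

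No other gene of these pathways passed the test either. Of 49 genes in 6 lists, 45 were tested. By edgeR, 0 had an adjusted p under 0.05, against 0.0% of all genes tested, and 0 had an unadjusted p under 0.05, against 2.64%. Their median log2 fold change was 0.01, with a range from -0.51 to 0.92. Of the other receptors for lysophospholipids and S1P, 8 of 10 were tested, with log2 fold changes from -0.51 to 0.92 and a smallest unadjusted p of 0.214 in edgeR's quasi-likelihood test. Lpar3 had at most 6 counts in a library, and Gpr119 had 0 counts in all 6, where 0 counts allow up to 3 in a library, for counting error only. The 3 proton-sensing relatives of Gpr132 ranged from -0.24 to 0.76. Gpr65, singled out after its value was seen, was the most abundant of these at 61.3 CPM per kb, with a log2 difference of -0.24 (standard error 0.20).

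No enzyme that makes or removes the ligands passed the test, and their precision differed. For LPA and lysophosphatidylserine, 9 of 10 enzymes were tested, with a median log2 fold change of -0.04 and a range from -0.34 to 0.34. Abhd16a, which makes lysophosphatidylserine, and Agk, a lipid kinase that can form LPA, were lower in every Lpcat3 KOMac library than in every WT library, beside 5.2% of all genes. Abhd16a stood at 60.2, 61.8 and 60.8 CPM in WT and at 57.9, 56.6 and 57.5 CPM in Lpcat3 KOMac libraries 1 to 3, a log2 fold change of -0.09 (standard error 0.07, unadjusted p = 0.226 by edgeR's quasi-likelihood test). Agk was at 10.2, 10.3 and 10.6 CPM in WT and at 9.9, 9.82 and 9.52 CPM in Lpcat3 KOMac libraries 1 to 3, a log2 fold change of -0.09 (standard error 0.11). These separations were small in size. Other enzymes and the carrier Apom were measured far less precisely. The 95% interval of the log2 fold change ran from -3.25 to 2.24 for Apom, the S1P carrier of plasma lipoproteins, from -2.61 to 2.28 for Pla1a, which makes lysophosphatidylserine, from -2.47 to 2.16 for Chpt1 and from -2.25 to 1.91 for Pafah2, which degrades PAF. These 4, singled out after their values were seen, spanned 8.24- to 14.8-fold between libraries and were each highest in WT library 1. For S1P, 8 of 9 kinases, phosphatases, lyase, exporters and carriers were tested, with a median of 0.11 and a range from -0.50 to 0.50. For PAF, 8 of 8 enzymes were tested, with a median of -0.11 and a range from -0.17 to 0.12. The 10 genes of G protein coupling that these receptors use ranged from -0.29 to 0.09, with a median of -0.02.

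**Figure D5:**
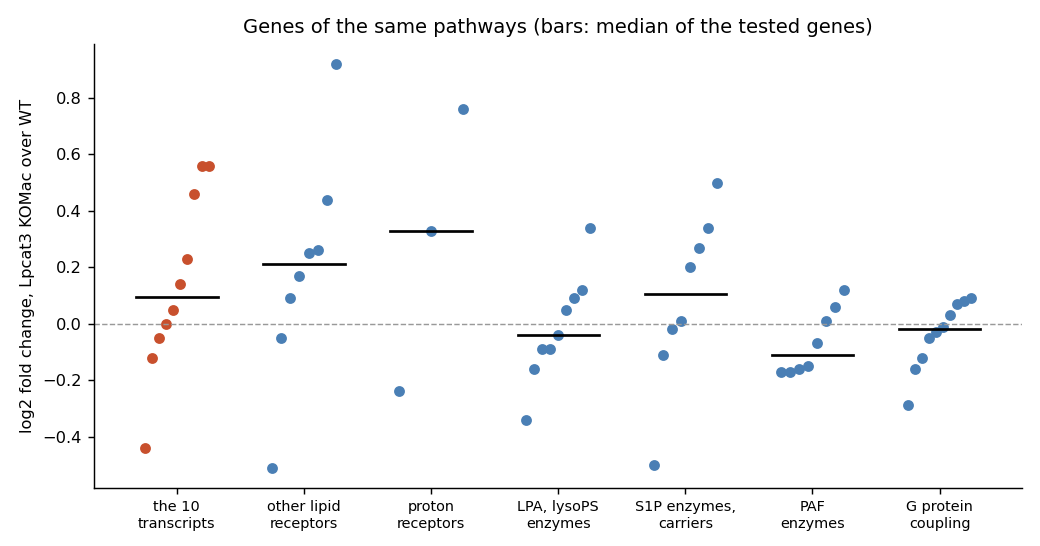
Log2 fold changes (Lpcat3 KOMac over WT) of the 10 transcripts (orange) and of the tested genes of the 6 pathway lists (blue), 1 point per gene, with a bar at the median. The PAF enzymes and the G protein genes stay between -0.29 and 0.12, and the other receptors spread from -0.51 to 0.92.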

How the data were processed

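Per the labels, F4/80-positive liver cells were isolated by MACS and poly-A RNA was prepared with the NEBNext Ultra kit. The authors deposited raw counts per gene for each library, and the submitters' processing notes name Trimmomatic 0.36, STAR 2.5.2b, featureCounts (Subread 1.5.2) and GRCm38. Strand setting, read length and handling of reads with several matches are not given in the sources used here. Gene symbols, overlaps and coding sequences came from GENCODE M21 and GRCm38, and 49056 of 49315 identifiers matched. For Gpr132 and Enpp2, whose positions there differ, the positions in the files are given.

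Groups followed the labels. Counts were tested with edgeR 4.0.16 in R 4.3.3 (TMM, minimum count 10, robust quasi-likelihood, genotype as the only term), with Benjamini-Hochberg adjustment over 16134 genes. Standard errors were the absolute log2 fold change over the square root of F, and 95% intervals used the fit's degrees of freedom. Levels are TMM-scaled CPM, and likeness used log2 CPM with a prior count of 2. DESeq2 1.42.0, limma-voom 3.58.1, other scalings and filters, a hepatocyte covariate, a length offset, a replicate block and leaving out libraries were tried. The edgeR fit was tested on simulated data. Depth was 44954224 to 71392812 counts. The members and gene lists were chosen with earlier results of these data known. Each of the 10 transcripts is named. Pathway genes are named if their unadjusted p was under 0.05 or their groups did not overlap, with exceptions stated, and the 3 nearest genes are named per transcript, except 1 that is not reported here.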

Additional observations from a re-analysis of the deposited data

How the results depend on the processing

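Across 17 alternatives, edgeR, DESeq2 and limma-voom called 0 of the 10 transcripts and 0 of the pathway genes at an adjusted p under 0.05. The number of the 10 with an unadjusted p under 0.05 was 0 with all libraries, 0 to 2 when 1 library was left out (1 without WT library 1, 2 without WT library 3) and 1 without both libraries highest in hepatocyte transcripts. Of 170 log2 fold changes under alternatives, 143 kept their sign. Lpar6 was 0.01 with DESeq2 size factors, with at least 10 counts in every library and in DESeq2, 0.08 with total counts alone, 0.02 in limma-voom and 0.09 with the hepatocyte covariate. P2ry10 was 0.02, 0.10 and 0.23 with total counts, limma-voom and the covariate. Lpar5 was -0.03 with the length offset, which moved the median of all genes from -0.04 to -0.13. S1pr2 was -0.01 and Enpp2 0.48 without both hepatocyte-rich libraries. With the replicate block Lpar6 was 0.01, P2ry10 0.05 and Enpp2 0.11. The mean correlation of same-numbered libraries was -0.18, and the numbers were not taken as pairs. With 1 library left out, values ran from -0.28 to 0.10 for Lpar1, -0.02 to 0.13 for Lpar5, -0.15 to 0.14 for Lpar6, -0.37 to 0.38 for P2ry10, -0.24 to 1.38 for Gpr132, -1.22 to 1.25 for Enpp2, 0.12 to 1.23 for S1pr1, 0.06 to 0.27 for S1pr2, 0.25 to 1.30 for Gpr34 and 0.27 to 1.17 for Ptafr. Beyond which libraries were left out, the cause was not tested. At 14 to 29 counts, P2ry10 is limited by depth, and with 3 libraries against 3 an exact permutation test cannot give a p below 0.1.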
